A study of Mus musculus with 2 samples.

Results

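The 9 genes described here are 8 inhibitory receptor genes of T cells, *Pdcd1*, *Lag3*, *Tigit*, *Ctla4*, *Btla*, *Cd160*, *Havcr2* and *Cd244*, and the ectonucleotidase gene *Entpd1*. They were taken by gene symbol from 14732 symbols listed in at least 1 of 2 libraries, and 9 of 9 had an FPKM of at least 1 in both. FPKM, the unit of the deposited files, is the number of reads scaled to transcript length and library size, so that levels of different genes can be set side by side. OT-I mice are transgenic for a T cell receptor that recognizes the OVA peptide SIINFEKL, and the donors were C57BL/6 animals of 6 to 8 weeks of age. Their CD8+ T cells, from spleen and lymph nodes, were activated with peptide (2.5 ng/mL) and IL-2 (10 U/mL) for 24 h. A retrovirus made with the vector RVKM then delivered either Eomes, giving Eomes-overexpressing OT-I cells (Eomes cells below), or no insert (control). Both vectors also encode human CD2 behind an IRES, so hCD2+ cells could be sorted 48 h later in both groups. The sorted cells (40000 per well) were re-stimulated with the same peptide and IL-2 doses for 3 days before RNA was extracted. The sources do not say how many animals were pooled, and the level of Eomes was set by the vector, not by its own promoter. One library was sequenced for each group, so no comparison between the groups has a replicate check and no test between them was possible. In RNA of bulk cultures, fewer cells with a transcript and less transcript per cell cannot be told apart.

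Inhibitory receptors are surface proteins that antigen stimulation induces on T cells and that dampen signals of the T cell receptor and of CD28. Several carry tyrosine motifs in the cytoplasmic tail that recruit the phosphatases SHP-1 and SHP-2, while CTLA-4 competes with CD28 for shared ligands. Acute stimulation induces many of them for a short time, and exhausted CD8+ T cells in tumors and in chronic infection keep several of them together. CD39, the product of *Entpd1*, is an enzyme that cleaves extracellular ATP and ADP to AMP, and is often used with them as a surface marker of exhausted cells.

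The targeted gene followed the labels, with an *Eomes* FPKM of 2.47 in control and 129.6 in Eomes cells, reads of the vector's insert included. The steps between low FPKM values of short genes place the depth near 19292203 reads for control and 19196538 for Eomes cells. Reads approximated from that depth give the 95% intervals used below (Clopper-Pearson for ratios, exact Poisson for levels). They cover counting error only and compare 2 libraries, not 2 conditions. T cell and CD8 marker genes were present in both libraries (5 of 5 and 2 of 2 with an FPKM of at least 1). The summed FPKM of *Cd8a* and *Cd8b1* was 379.1 in control and 241.6 in Eomes cells, and that of the 5 T cell markers was 952.9 and 818.1. *Cd4*, *Foxp3* and the 3 B cell markers were under an FPKM of 0.1 or not listed. Of the 2 NK cell markers, *Ncr1* was not listed in either library, whereas *Klrb1c* had an FPKM of 0.31 and 5.74. Of the 6 myeloid markers, *Cd68* alone exceeded an FPKM of 1 (2.68 and 4.59), and *Lyz2*, *Csf1r* and *Adgre1* were not listed. The summed myeloid level was 2.86 and 4.93. Red cell markers summed to 0.19 in control and were not listed in Eomes cells, and *Col1a1* and *Pecam1* summed to 5.66 and 4.01. The part of these differences in the levels below was not tested.

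As a group, the 9 genes had a lower sum in Eomes cells and a different composition. Their summed FPKM was 636.9 in control and 472.4 in Eomes cells, which is 1.35-fold lower, or 0.113% and 0.0859% of all FPKM in the respective library. The 3 genes with higher levels in Eomes cells, *Havcr2*, *Cd244* and *Entpd1*, together went from 48.8 to 81.2. The 6 genes with lower levels together went from 588.2 to 391.2. The increase of 32.4 in the first set was thus smaller than the decrease in the other set, which dropped by 196.9. *Pdcd1*, *Tigit* and *Ctla4* alone accounted for 499.3 in control and 323.9 in Eomes cells. Of the 9 genes, 5 were past 1.5-fold, 3 of them higher and 2 lower, which is 33.3% and 22.2% of the group. Genes reaching an FPKM of 1 in either library are called expressed here, and of these 9925 genes 7.65% were past 1.5-fold, 2.46% higher and 5.19% lower. The share past 1.5-fold varied with the level, so each gene is also set beside its own abundance class. Of 4097 expressed genes with a mean FPKM of 1 to under 10, 3.86% were higher and 8.69% lower. Of 4761 genes at 10 to under 100 these shares were 1.05% and 1.89%, and of 910 genes at 100 or more they were 0.33% and 0.989%. The median log2 ratio (Eomes over control) was -0.35 for the 9 genes and -0.0037 for all expressed genes.

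**Figure D1:**
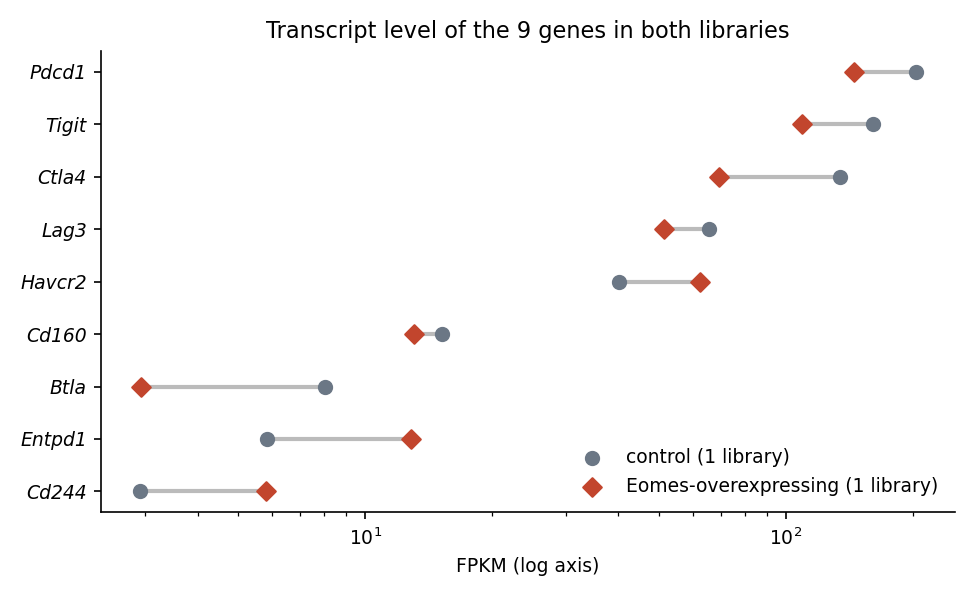
FPKM of the 9 genes on a log axis, with control as a gray circle and Eomes cells as a red diamond, 1 library each, joined by a gray line. The diamonds lie to the right of the circles for *Havcr2*, *Entpd1* and *Cd244* and to the left for the other 6 genes. *Btla* falls below both *Entpd1* and *Cd244*, and *Havcr2* passes *Lag3*.

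For the 5 genes past 1.5-fold (*Havcr2*, *Cd244* and *Entpd1* higher, *Ctla4* and *Btla* lower), the 250 bases before the transcription start are shown to set the opposite directions beside the sequence at each gene. The windows are from RefSeq on GRCm38.p6, the mm10 build, and run 5′ to 3′ on the strand of the gene. They lie at chr11:46454681-46454930 (plus strand) for *Havcr2*, chr1:171558943-171559192 (plus) for *Cd244*, and chr19:40612116-40612365 (plus) for the first of 2 starts of *Entpd1*. Those of *Ctla4* and *Btla* are at chr1:60908775-60909024 (plus) and chr16:45224087-45224336 (plus), and the RefSeq start of *Ctla4* lies inside the longer GENCODE span of that gene given below. Capitals mark matches, on either strand, to 3 short motifs, the T-box core GGTGTG, the RUNX core TGTGGT and the AP-1 pattern TGANTCA. This pattern is loose, because N stands for any base.
Havcr2: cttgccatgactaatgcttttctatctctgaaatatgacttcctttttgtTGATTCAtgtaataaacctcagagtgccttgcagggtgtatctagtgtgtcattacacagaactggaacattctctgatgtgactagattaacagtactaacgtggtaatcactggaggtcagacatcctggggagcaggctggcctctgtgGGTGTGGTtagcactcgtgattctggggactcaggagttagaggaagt
Cd244: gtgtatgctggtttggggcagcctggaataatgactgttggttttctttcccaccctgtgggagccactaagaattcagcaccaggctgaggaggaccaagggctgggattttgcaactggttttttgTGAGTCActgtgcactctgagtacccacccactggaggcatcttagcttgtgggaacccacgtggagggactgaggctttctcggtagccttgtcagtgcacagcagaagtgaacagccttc
Entpd1: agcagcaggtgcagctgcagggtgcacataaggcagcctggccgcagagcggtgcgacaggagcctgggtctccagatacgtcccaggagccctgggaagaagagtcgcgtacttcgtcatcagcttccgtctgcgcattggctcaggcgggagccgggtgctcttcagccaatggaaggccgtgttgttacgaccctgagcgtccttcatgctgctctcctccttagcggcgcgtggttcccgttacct
Ctla4: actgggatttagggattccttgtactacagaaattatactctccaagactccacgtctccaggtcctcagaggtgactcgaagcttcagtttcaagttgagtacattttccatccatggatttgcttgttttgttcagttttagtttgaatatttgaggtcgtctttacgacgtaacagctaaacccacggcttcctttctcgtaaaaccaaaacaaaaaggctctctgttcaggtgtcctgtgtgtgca
Btla: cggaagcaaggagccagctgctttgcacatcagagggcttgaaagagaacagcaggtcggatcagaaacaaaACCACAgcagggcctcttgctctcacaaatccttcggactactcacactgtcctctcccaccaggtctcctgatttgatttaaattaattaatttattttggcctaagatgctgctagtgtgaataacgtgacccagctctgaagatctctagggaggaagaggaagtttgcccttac

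The T-box core is the half-site read by Eomes and T-bet. It was present in 16.3% of 32851 RefSeq windows of the same length, the RUNX core in 14.0% and the AP-1 pattern in 6.75%. Windows were found for 8 of the 9 genes, with 10 starts in all, and that of *Lag3* was not analysed here. The *Havcr2* window held all 3 motifs, as did 0.277% of all windows, a share that counts overlapping matches and any base at N. Its T-box and RUNX matches overlap in the single stretch GGTGTGGT and start 48 and 46 bases before the transcription start. Its AP-1 match, TGATTCA, starts 200 bases before the transcription start. *Cd160*, whose transcript was lower, held a T-box and a RUNX match before both of its starts. Among the other genes, *Cd244* had an AP-1 match, *Btla* and *Tigit* had a RUNX match, and *Ctla4*, *Pdcd1* and both windows of *Entpd1* had none of the 3. The T-box core was thus before 1 of the 3 genes with higher and 1 of the 5 analysed genes with lower transcript levels. These are matches of letters in a short window, and binding was not analysed here.

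*Havcr2* encodes Tim-3, an inhibitory receptor of terminally exhausted CD8+ T cells, and maps to chromosome 11 (mm10, positions 46454935 to 46481255). Its FPKM was 40.01 (interval 38.3 to 41.8) in control and 62.6 (60.4 to 64.7) in Eomes cells. The 2 intervals do not overlap, and the ratio of 1.56 has an interval of 1.48 to 1.65 that reaches just below 1.5-fold. Centred on genes of like GC content the log2 ratio was 0.54, which is under 1.5-fold. Among 4761 expressed genes with a mean FPKM of 10 to under 100, 0.819% had a larger log2 ratio. In share, *Havcr2* was the gene that gained most, from 6.28% of the summed FPKM of the 9 genes in control (interval 6.03 to 6.54) to 13.2% (12.8 to 13.6). It moved from the fifth to the fourth highest level in the group, past *Lag3*.

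*Cd244* encodes 2B4, a receptor of the SLAM family that activates or inhibits depending on the adaptor bound to its tail. The gene, named Cd244a in the annotation, is on chromosome 1 from 171559193 to 171609746. *Ly9* lies within that span on the opposite strand, and the annotated exons of the 2 genes share 0 bases. The FPKM of *Cd244* was 2.92 in control and 5.81 in Eomes cells, and in control it had the lowest level of the group. The log2 ratio of 0.99 (interval 0.75 to 1.24) rests on about 212 and 419 reads. Its share of the group went from 0.458% to 1.23%.

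*Entpd1* lies on chromosome 19 from 40612366 to 40741602. Its FPKM was 5.86 (interval 5.35 to 6.41) in control and 12.9 (12.1 to 13.7) in Eomes cells, from about 477 and 1042 reads. With a ratio of 2.19 (interval 1.97 to 2.45) it had the largest relative increase of the 9 genes, and its share was 2.96-fold higher, 0.920% and 2.72%. Among 4097 expressed genes with a mean FPKM of 1 to under 10, 0.537% had a larger log2 ratio than *Entpd1* and 0.854% a larger one than *Cd244*. The level of *Entpd1* in Eomes cells did not differ from that of *Cd160* beyond counting error (12.9 and 13.0), although in control it was 0.384 times that of *Cd160*. As shares of reads in place of FPKM, the gains of *Entpd1* and *Cd244* were 3.82 and 1.45 percentage points in place of 1.80 and 0.77.

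**Figure D2:**
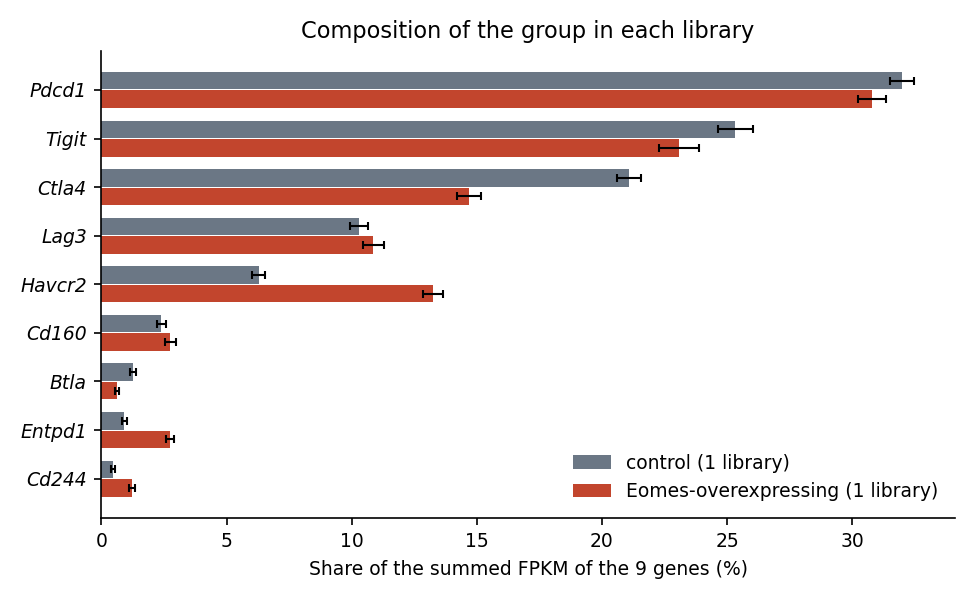
Share of each gene in the summed FPKM of the 9 genes (percent), with control in gray and Eomes cells in red, 1 library each. Error bars are 95% Poisson intervals on approximated reads of that gene, with the other genes held fixed. *Havcr2* shows the largest gain (6.28% to 13.2%) and *Ctla4* the largest loss (21.1% to 14.7%), while *Pdcd1* is at 32.0% and 30.8%.

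*Ctla4*, whose product CTLA-4 binds CD80 and CD86 with higher affinity than CD28 does, is on chromosome 1 from 60887000 to 60915832. Its FPKM was 134.3 (interval 130.6 to 138.1) in control and 69.4 (66.7 to 72.1) in Eomes cells. This difference of 64.9 was the largest absolute decrease in the group. The log2 ratio was -0.95 (interval -1.02 to -0.88), which is 1.94-fold lower. Of the 910 expressed genes with a mean FPKM of at least 100, 0 had a lower log2 ratio than *Ctla4*, whose mean of 101.8 is just above the limit of that class. The share of *Ctla4* went from 21.1% to 14.7%, a change of -6.39 percentage points that was -9.78 points without *Pdcd1* in the sum.

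*Btla* encodes an immunoglobulin family receptor that binds HVEM, and is on chromosome 16 from 45224315 to 45257670. It had the largest relative decrease, with an FPKM of 8.03 in control and 2.94 in Eomes cells. It was 2.73-fold lower (interval 2.31 to 3.26, from about 504 and 183 reads), and 0.879% of the expressed genes with a mean FPKM of 1 to under 10 had a lower log2 ratio. *Btla* was seventh of the 9 genes by level in control and last in Eomes cells. Within a library, the ratio of *Entpd1* to *Btla* was 0.730 in control and 4.37 in Eomes cells. *Cd244* went from 0.364 to 1.98 times the level of *Btla*. Such ratios do not depend on how the 2 libraries were scaled to each other.

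*Pdcd1* encodes PD-1, a receptor for PD-L1 and PD-L2, and lies on chromosome 1 from 94038305 to 94052553. It was the most abundant of the 9 transcripts in both libraries, with an FPKM of 203.7 in control and 145.4 in Eomes cells. The level was 1.40-fold lower (interval 1.35 to 1.45) and thus within 1.5-fold. *Tigit*, on chromosome 16 from 43648867 to 43664146, encodes a receptor for the nectin-family proteins CD155 and CD112. Its FPKM was 161.3 and 109.1, which is 1.48-fold lower with an interval of 1.40 to 1.57 that spans 1.5-fold. Both genes belong to the class with a mean FPKM of at least 100, where 95% of the log2 ratios fell between -0.45 and 0.31. The log2 ratios of *Pdcd1* (-0.49) and *Tigit* (-0.56) were below that range. Their shares of the group dropped by 1.20 and 2.23 percentage points, to 30.8% and 23.1%, because both genes were lower by a larger factor than the group's sum (1.35-fold). As a share of reads in place of FPKM the change of *Pdcd1* was -3.48 points, and without *Pdcd1* in the sum that of *Tigit* was -3.87 points.

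*Lag3* encodes a CD4-related receptor that binds MHC class II and lies on chromosome 6 from 124904361 to 124911705. It had an FPKM of 65.6 in control and 51.3 in Eomes cells, a log2 ratio of -0.35 (interval -0.44 to -0.27). *Cd160*, a GPI-anchored receptor for HVEM, is on chromosome 3 from 96798763 to 96829351, where 2.57% of its exon bases also lie in exons of *Pdzk1* on the opposite strand. It had an FPKM of 15.3 and 13.0, a log2 ratio of -0.23 (interval -0.38 to -0.074), the smallest difference in the group. Both were inside the range that held 95% of the 4761 genes with a mean FPKM of 10 to under 100 (-0.51 to 0.44). Although both levels were lower, both shares of the group were slightly higher, 10.3% and 10.9% for *Lag3* and 2.40% and 2.76% for *Cd160*, with counting intervals that overlap for both (9.94 to 10.7 and 10.4 to 11.3 for *Lag3*, 2.23 to 2.57 and 2.56 to 2.97 for *Cd160*). As a share of reads in place of FPKM, the change of *Lag3* turned to -0.17 percentage points.

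**Figure D3:**
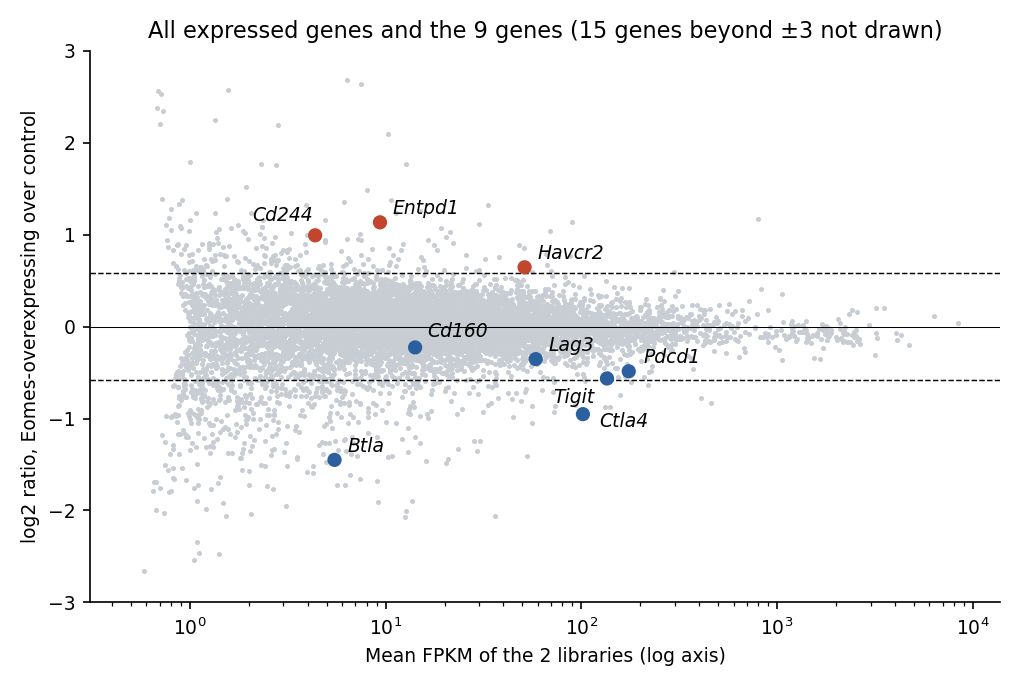
Log2 ratio (Eomes over control) against mean FPKM (log axis) for 9925 expressed genes in light gray, 15 of which lie beyond the axis limits of 3 in either direction, with the 9 genes in red (higher) or blue (lower). Dashed lines mark 1.5-fold. *Ctla4*, *Tigit* and *Pdcd1* lie at the lower edge of the abundant genes, while *Lag3* and *Cd160* lie within the cloud.

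The opposite movements were also read as ratios of 2 transcripts within a library. *Havcr2* was at 0.196 times the level of *Pdcd1* in control and at 0.430 times in Eomes cells, a 2.19-fold change of the ratio. Against *Ctla4* it went from 0.298 to 0.902, a 3.03-fold change. Against *Lag3* it went from 0.610 to 1.22, so that *Havcr2* was below *Lag3* in control and above it in Eomes cells. Among genes that were both lower, ratios varied less for *Lag3* to *Pdcd1* (0.322 and 0.353) and *Tigit* to *Pdcd1* (0.792 and 0.750) than for *Cd160* to *Btla* (1.90 and 4.44), although the products of the last pair bind the same ligand.

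The ligands and partner receptors of each member were set beside it, with 53 expressed genes in 7 lists of related genes. Across these lists 4 genes were past 1.5-fold higher and 9 past 1.5-fold lower, beside 2.46% and 5.19% of all expressed genes. The median log2 ratio was -0.15. Of the higher genes, *Sh2d1b1*, *Klrg1* and *Lair1* had an FPKM of 0.21, 0.45 and 0.79 in control. They were thus counted as expressed through their level in Eomes cells alone, and *Il10ra* was not. Among 10 expressed ligand genes 0 were higher and 2 lower. Those 2 were *Cd80*, a ligand of CTLA-4 and CD28 (FPKM 43.8 and 28.6, 1.53-fold lower), and *Lgals3*, which encodes galectin-3, a reported ligand of LAG-3 (215.1 and 141.3, 1.52-fold lower). The log2 interval of *Cd80*, -0.70 to -0.53, spans 1.5-fold, as does that of *Lgals3*, -0.67 to -0.55. *Hmgb1*, which encodes a nuclear protein that Tim-3 can bind outside cells, was 1.34-fold higher (150.04 and 200.7). The PD-1 ligands *Cd274* and *Pdcd1lg2* were low and within 1.5-fold, with an FPKM of 2.92 and 2.38 for the first and of 6.85 and 6.29 for the other. *Pvr*, which encodes CD155, was at 9.93 and 8.76, and *Tnfrsf14*, which encodes HVEM, was at 3.49 and 3.14. *Lgals9*, which encodes the Tim-3 ligand galectin-9, was at 48.4 and 39.3, so that *Havcr2* went from 0.826 to 1.59 times its level.

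**Figure D4:**
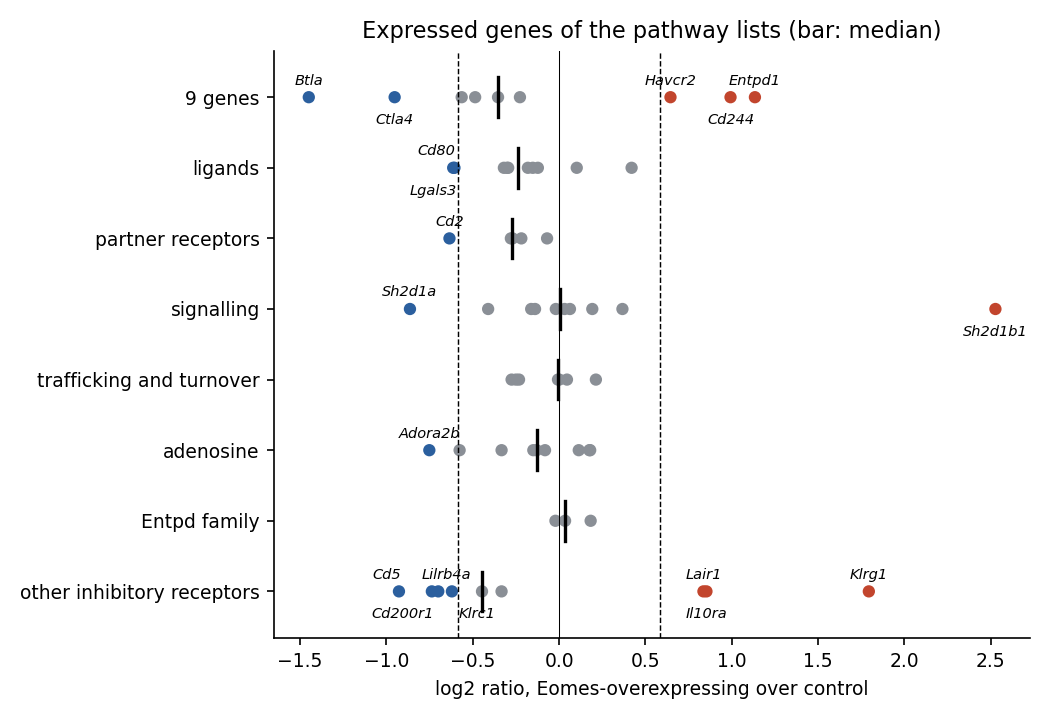
Log2 ratios (Eomes over control) of the 9 genes and of the expressed genes of 7 related lists, 1 point per gene, with a black bar at the median of each row and dashed lines at 1.5-fold. Red and blue points are past 1.5-fold and are named. The 9 genes hold points on both sides. In the list of other inhibitory receptors, the higher points are the cytokine receptor gene *Il10ra* and *Klrg1* and *Lair1*. These last 2 genes are under an FPKM of 1 in control and are drawn through their level in Eomes cells alone. No gene of the Entpd family or of trafficking and turnover is past a line, in lists of 3 and 7 expressed genes. Among all expressed genes 7.65% are past 1.5-fold.

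*Ctla4* is flanked on chromosome 1 by the genes of the activating receptors CD28 and ICOS, at distances of 114 and 62.1 kb. *Cd28* had an FPKM of 18.4 in control and 15.8 in Eomes cells (log2 ratio -0.22), and *Icos* of 57.9 and 47.7 (-0.28). *Ctla4* was therefore 7.29 times as abundant as *Cd28* in control and 4.39 times in Eomes cells, and 2.32 and 1.46 times as abundant as *Icos*. For *Tigit*, the competing receptor CD96 gives a similar reading, with 4.78 and 3.39 times the level of *Cd96* (33.7 and 32.1). *Cd226*, the activating receptor for the same ligands, was under an FPKM of 1 in both libraries (0.39 and 0.37). *Cd2*, which encodes an adhesion and costimulatory receptor, was the 1 of 5 expressed partner receptors past 1.5-fold (265.3 and 170.9, 1.55-fold lower). Its log2 interval of -0.69 to -0.58 reaches just within that fold. Among all expressed genes 7.65% were past 1.5-fold. The human CD2 of the vectors is a separate gene of another species, and whether its reads reach the mouse gene was not tested.

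For each of the 9 genes, the nearest expressed protein-coding gene on either side, in some cases over 1000 kb away, was read as well. Of these 18 neighbours 0 were past 1.5-fold higher and 1 was past 1.5-fold lower, near the shares of 2.46% and 5.19% among all expressed genes. That neighbour was *Cd200*, 124 kb from *Btla*, with an FPKM of 17.0 in control and 7.29 in Eomes cells (log2 ratio -1.22). *Cd200* encodes the ligand of the inhibitory receptor CD200R1, whose gene *Cd200r1* was also lower (2.55 and 1.53). *Med7*, next to *Havcr2*, had a log2 ratio of 0.23, and *Tctn3*, which lies 0.133 kb from *Entpd1*, one of -0.12. *Ptms*, 1.98 kb from *Lag3*, had a log2 ratio of -0.38, close to that of *Lag3*, and *Cdca3* on the other side one of 0.012. Of the 18 neighbours, 9 had a log2 ratio of the same sign as their gene.

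Among 10 expressed genes of the signalling list, 1 was past 1.5-fold higher and 1 lower, beside 2.46% and 5.19% of all expressed genes. Both signalling genes encode adaptors of the SLAM family to which CD244 belongs. *Sh2d1a*, which encodes SAP, had an FPKM of 94.8 in control and 52.1 in Eomes cells (1.82-fold lower). *Sh2d1b1*, which encodes EAT-2, had an FPKM of 0.21 and 1.21, and its log2 ratio of 2.53 has a wide interval of 1.59 to 3.70, from about 10 and 59 reads. It was counted as expressed through its level in Eomes cells alone. With *Cd244* 1.99-fold higher, *Sh2d1a* went from 32.5 to 8.97 times the level of *Cd244*. *Cd48*, the gene of the CD244 ligand, was at 89.1 and 95.6. *Ptpn6*, which encodes SHP-1, was 1.33-fold lower (194.5 and 146.3), *Ptpn11*, which encodes SHP-2, was at 25.01 and 25.6, and *Lck*, the kinase that starts T cell receptor signals, was at 277.8 and 252.2. In the list of trafficking and turnover, 0 of 7 expressed genes were past 1.5-fold, beside 7.65% of all expressed genes. A count of 0 in 7 genes is near that background. Its 2 most abundant members, *Ap2m1* and *Ap1m1*, which encode clathrin adaptor subunits that bind the CTLA-4 tail, had log2 ratios of -0.25 and -0.23.

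In the adenosine list, 0 of 9 expressed genes were past 1.5-fold higher and 1 was lower, beside 2.46% and 5.19% of all expressed genes. A count of 0 in 9 genes is near that background. *Nt5e*, which encodes CD73, the enzyme that turns AMP into adenosine, had an FPKM of 1.64 and 1.10, a log2 ratio of -0.58 (interval -0.99 to -0.17). Of the adenosine receptor genes, *Adora2b* was 1.68-fold lower (4.63 and 2.75) and was the gene of this list past 1.5-fold, although its log2 interval of -1.14 to -0.39 spans that fold, and *Adora2a*, the main receptor of T cells, was at 18.9 and 20.4. *Slc29a1*, an adenosine transporter gene, was at 99.5 and 112.3, and *Adk*, which encodes adenosine kinase, was at 27.1 and 24.8. Of the other genes of the Entpd family, 3 were expressed and 0 were past 1.5-fold, which in 3 genes is also near the background. *Entpd6* was at 15.3 and 15.7 and *Entpd5* at 8.08 and 9.17. In control *Entpd1* was thus below both of these genes, and in Eomes cells it was above *Entpd5*.

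Inhibitory receptors outside the group were listed together with the cytokine receptor gene *Il10ra*. Those inhibitory receptor genes with an FPKM of at least 1 in both libraries were all lower in Eomes cells, past 1.5-fold or not. Among 9 expressed genes of that list, 3 were past 1.5-fold higher and 4 past 1.5-fold lower, beside 2.46% and 5.19% of all expressed genes. The median log2 ratio of the list was -0.45. The 3 higher genes were *Klrg1*, a receptor of short-lived effector cells (0.45 and 1.56), *Lair1*, a collagen receptor (0.79 and 1.41), and *Il10ra*, which encodes a chain of the IL-10 receptor (7.44 and 13.4). Of these, *Klrg1* and *Lair1* were counted as expressed through their level in Eomes cells alone, so the count of higher genes depends on that filter. *Klrg1* was higher by a log2 ratio of 1.79 with an interval of 0.86 to 2.88, and the NK cell marker *Klrb1c* was higher in the same library, as given above. The 4 lower genes were *Cd5*, which tunes down T cell receptor signals (94.8 and 49.9), *Klrc1*, which encodes NKG2A (17.3 and 11.3), *Lilrb4a* (15.6 and 9.58) and *Cd200r1*. The intervals of *Lair1*, *Klrc1*, *Lilrb4a* and *Cd200r1* span 1.5-fold, and those of *Klrg1*, *Il10ra* and *Cd5* do not. *Cd5*, the most abundant of the list, had a log2 ratio of -0.93, close to that of *Ctla4*.

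**Figure D5:**
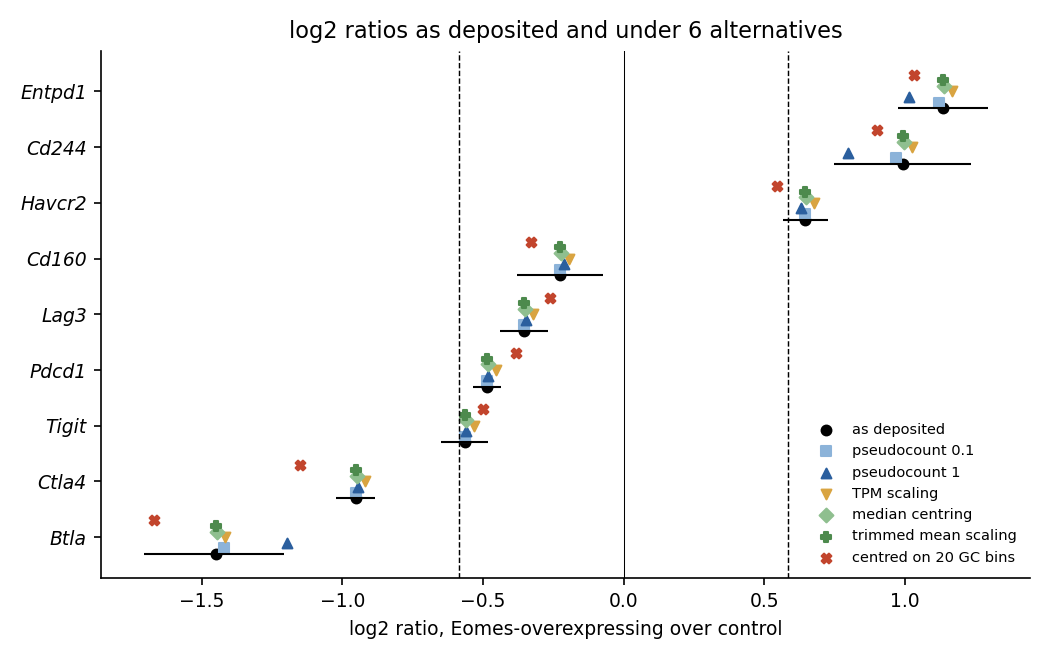
Log2 ratios (Eomes over control) of the 9 genes as deposited (black circles, with 95% counting intervals as lines) and under 6 other settings of pseudocount, scaling and GC content. Dashed lines mark 1.5-fold. No gene changes sides of 0 under these settings, and *Havcr2* lies at 0.54, inside the dashed lines, when ratios are centred by GC content.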

How the data were processed

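RNA of control and Eomes-overexpressing OT-I cells was sequenced for the authors, 1 library per group. Reads were filtered with SOAPnuke, mapped with HISAT and Bowtie2 to mm10, and quantified with RSEM (versions not given in the sources used here). The deposited FPKM values (called RPKM in the study's methods) have 2 decimals and start at 0.01. No normalization between the libraries is stated. Symbols turned into dates (20 and 19) were left out.

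Values not listed were set to 0.01. Log2 ratios, shares and counts past 1.5-fold, the fold the study's methods use, came from scripts in Python 3.11.15 with numpy 2.4.6, pandas 2.3.3, scipy 1.17.1 and matplotlib 3.10.9. Depth was read as the value at which FPKM times length of genes under 1500 bases with a single GENCODE M21 transcript came closest to whole reads. Of 131 and 145 low values, 64.1% and 62.1% were within 0.15 of a whole read, so depth and reads are approximate. Reads of a gene use its longest coding transcript. Steps were tested on simulated data.

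The members and lists were chosen with earlier results of these data known. Genes were named by a rule: the 9 members, *Eomes*, listed genes past 1.5-fold, the 2 most abundant genes of each list and the genes nearest to 3 members. Other ligands, partners and neighbours were named after their values were seen. Alternatives were other pseudocounts, minimums, thresholds, scalings, GC centring and shares of reads.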

Additional observations from a re-analysis of the deposited data

How the results depend on the processing

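With 1 library per group, differences between cultures and effects of Eomes cannot be told apart, and depth limits *Cd244*, *Btla* and genes under an FPKM of about 1 most. No paired analysis was possible because each group has 1 library and the groups share 1 replicate number. The log2 ratios of the 9 genes kept their direction under 6 alternatives, and 49 of 54 values stayed within the counting interval. Centring on 20 GC bins gave -0.38 for *Pdcd1*, -0.26 for *Lag3*, -1.15 for *Ctla4* and 0.54 for *Havcr2*, which is under 1.5-fold and leaves 2 of 3 higher members. A pseudocount of 1 gave -1.20 for *Btla*. With a threshold of 2-fold, 1 member was higher and 1 lower, in place of 3 and 2, and the lists held 2 higher and 0 lower, in place of 4 and 9. Of the expressed genes 244 were higher and 515 lower. Without a minimum FPKM 1356 and 2088 were, with a minimum of 5 it was 95 and 213, at 2-fold 69 and 175, and with a pseudocount of 1 118 and 285. Weighted by length, as a share of reads, the change in share was -3.48 points for *Pdcd1*, -7.94 for *Ctla4*, -1.23 for *Btla*, 9.23 for *Havcr2*, 1.45 for *Cd244* and 3.82 for *Entpd1*, and that of *Lag3* turned from 0.57 to -0.17. Without *Pdcd1* it was -3.87 for *Tigit*, -9.78 for *Ctla4*, -0.95 for *Btla*, 9.90 for *Havcr2*, 1.10 for *Cd244* and 2.58 for *Entpd1*. These changes follow from the weights and the smaller sum.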

Other observations

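The genes whose levels in the 2 libraries were closest to those of 3 members were read by Euclidean distance in log2 FPKM, a likeness over 2 libraries only. Nearest to *Pdcd1*, the most abundant member, were *Cd8b1*, a chain of the CD8 coreceptor (FPKM 197.3 in control and 142.5 in Eomes-overexpressing cells, distance 0.0543), and *Ptpn6* (194.5 and 146.3, distance 0.0672). Nearest to *Btla* were *Ephx1*, which encodes an epoxide hydrolase (8.21 and 3.25, distance 0.148), and *Cth*, which encodes an enzyme of cysteine synthesis (7.22 and 3.00, distance 0.156). Nearest to *Entpd1* were *Zfp512* (6.10 and 10.9, distance 0.242) and *Esm1* (5.94 and 15.4, distance 0.259).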
